A study of Homo sapiens with 6 samples.

Results

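RNA of the genes that run mitosis was compared in MRC5, a human lung fibroblast line, after 2 kinds of conditioned medium. A set of 38 such genes was examined, listed by symbol and role without a threshold on measured values. The set was chosen with earlier results of these data known, so its counts are described and not tested. All 38 were found among the 58676 gene identifiers of the count table. They were ordered by role into 9 genes of mitotic entry, 7 of chromosome condensation, 12 of the spindle, 4 of mitotic exit and 6 of cytokinesis. RNA-Seq counts came from 6 libraries. In 3 of them (control ATII CM) the fibroblasts spent 24 h in conditioned medium (CM) of untreated ATIIER:KRASV12 cells. In the other 3 (4-OHT ATII CM) they spent 24 h in CM of the same epithelial line after 24 h with 4-hydroxytamoxifen (4-OHT), which switches on its RAS transgene. The epithelial line is of alveolar type II origin and its RAS protein is fused to an estrogen receptor domain that answers 4-OHT. No library holds fibroblasts given 4-OHT without epithelial cells, so an effect of epithelial products and one of 4-OHT carried over in the CM cannot be told apart. The labels do not say whether replicates were separate cultures, so the p values measure the spread between these libraries only.

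Mitosis begins when cyclin B bound to the kinase CDK1 is activated by CDC25 phosphatases and by Polo-like kinase PLK1. Condensins and topoisomerase II then compact the chromosomes, Aurora A and its partner TPX2 build the spindle, and the anaphase-promoting complex (APC/C) with CDC20 ends mitosis by marking cyclin B and securin for destruction. A contractile ring held together by anillin divides the cell. Many of these genes are transcribed together late in the cell cycle, under a complex of MuvB proteins with B-MYB and FOXM1. Their promoters often hold CCAAT boxes and, close to the start, a cell cycle genes homology region (CHR). In resting cells the same promoters are repressed, and lung fibroblasts in culture are a mixture of resting and cycling cells.

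Promoter sequences are shown first, and their part in the changes below was not tested. Windows from 250 bases before to 50 bases after each listed transcription start (RefSeq, GRCh38.p14) were found for 33 of the 38 genes, and none was listed for *TPX2*, *RACGAP1*, *UBE2C*, *AURKA* or *FOXM1*. The letters TTTGAA and TTTAAA were searched as the CHR and CCAAT as the CCAAT box, each on both strands. The stretches below run 5′ to 3′ on the strand of the gene, from 130 bases before to 20 bases after the start, with matches in capitals. They were chosen, after the values were seen, to show 3 genes of mitotic entry and 4 genes with large falls in the other roles. Each of them holds CHR letters, and no promoter without these letters is shown.
CCNB1: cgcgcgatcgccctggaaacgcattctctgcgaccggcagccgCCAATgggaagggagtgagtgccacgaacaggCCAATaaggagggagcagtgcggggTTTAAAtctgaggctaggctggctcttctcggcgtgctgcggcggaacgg
CCNB2: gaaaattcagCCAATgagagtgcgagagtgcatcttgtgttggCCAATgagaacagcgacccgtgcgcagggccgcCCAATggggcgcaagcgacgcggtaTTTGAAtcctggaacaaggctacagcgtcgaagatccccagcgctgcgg
PLK1: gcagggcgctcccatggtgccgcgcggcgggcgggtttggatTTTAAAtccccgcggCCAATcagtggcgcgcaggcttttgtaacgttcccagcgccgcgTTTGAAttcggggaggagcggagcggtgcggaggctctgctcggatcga
MKI67: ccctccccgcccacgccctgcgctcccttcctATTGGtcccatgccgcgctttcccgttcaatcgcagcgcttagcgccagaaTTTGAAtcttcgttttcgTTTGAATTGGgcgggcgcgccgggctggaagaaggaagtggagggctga
ASPM: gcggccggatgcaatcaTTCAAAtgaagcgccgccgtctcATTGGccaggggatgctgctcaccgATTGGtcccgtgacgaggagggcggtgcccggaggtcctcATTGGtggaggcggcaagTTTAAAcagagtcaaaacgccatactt
ESPL1: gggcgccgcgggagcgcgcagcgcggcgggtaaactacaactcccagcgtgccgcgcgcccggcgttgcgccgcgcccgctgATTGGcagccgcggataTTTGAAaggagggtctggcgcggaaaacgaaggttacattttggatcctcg
IQGAP3: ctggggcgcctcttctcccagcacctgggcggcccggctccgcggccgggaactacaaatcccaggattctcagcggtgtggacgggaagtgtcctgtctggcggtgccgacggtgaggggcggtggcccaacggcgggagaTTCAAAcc
The stretches are chr5:69167020-69167169 (plus strand) for *CCNB1*, chr15:59105016-59105165 (plus) for *CCNB2*, chr16:23678759-23678908 (plus) for *PLK1* and chr10:128126404-128126553 (minus) for *MKI67*. Those of *ASPM*, *ESPL1* and *IQGAP3* are chr1:197146650-197146799 (minus), chr12:53268169-53268318 (plus) and chr1:156572546-156572695 (minus). RefSeq starts need not be those of the deposited gene models. For 26 of the 33 genes a window held the 5′ end of the deposited gene, and for 7 (*PLK1*, *NCAPD2*, *SMC4*, *HMMR*, *CKAP2*, *TACC3* and *PRC1*) none did. The window of *TACC3* lay wholly upstream of the deposited gene, so the start of that gene was not searched.

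The CHR letters stood in at least 1 window of 28 of the 33 genes (84.8%), against 27.9% of all 27305 RefSeq genes with a window. Within 50 bases of a start they stood in 24 of the 33 (72.7%), against 9.41% of all genes. This distance was chosen with the promoters in view. A CCAAT box was present in 25 of the 33 (75.8%, against 39.7% of all), and at least 2 in a window in 18 (54.5%, against 12.9%). Some genes have several starts and so several chances of a match. Counted over single windows, the CHR letters were in 32 of 44 windows of these genes (72.7%) and in 24.0% of all 35116. *CCNB1* carries CCAAT boxes at 87 and 55 bases before its start and the CHR letters 30 bases before it. *CCNB2* has CCAAT boxes at 244, 120, 87 and 54 bases and the CHR letters at 193 and 29 bases before its start, the farthest of each lying outside the stretch printed. The matches of *IQGAP3* differ, since its CHR letters begin at position 13, counting the start as 1, and no CCAAT box was found. A match is a run of letters and not a measured binding site.

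**Figure D1:**
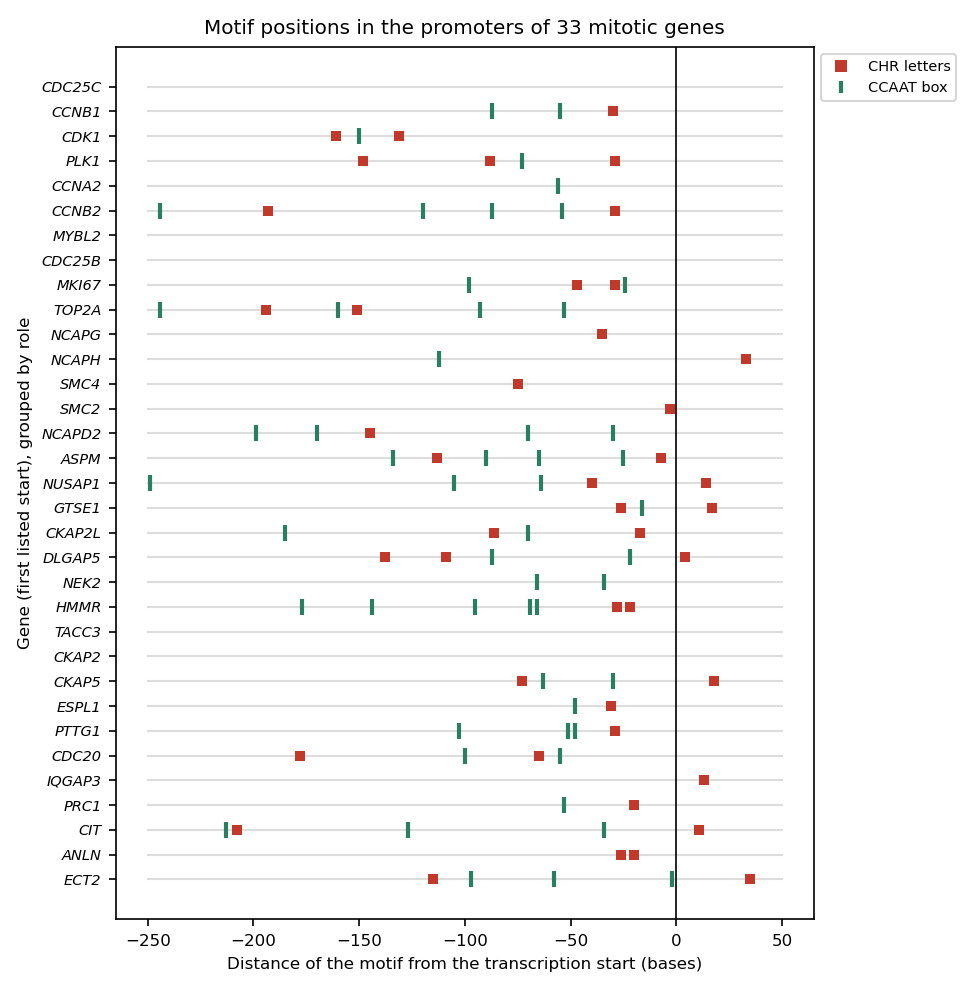
Position of the first base of each CHR match (red squares) and CCAAT box (green bars), in bases from the transcription start, in the first listed promoter window of 33 mitotic genes grouped by role. In *CCNB1*, *CCNB2*, *PLK1*, *PTTG1* and *ESPL1* a CHR match lies between 29 and 31 bases before the start, on the downstream side of a CCAAT box.

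Of 38 mitotic genes, 36 were lower in 4-OHT ATII CM and none was higher (edgeR's quasi-likelihood test, Benjamini-Hochberg adjusted p below 0.05). Over all 19072 genes tested, 2.76% were lower and 2.95% higher by the same rule. These calls over all genes, 527 lower and 563 higher, depended on single libraries. Lower genes numbered 834 without control ATII CM replicate 2, 339 without replicate 3, and 349, 244 and 300 without 4-OHT ATII CM replicates 1, 2 and 3. Higher genes numbered 324 without control ATII CM replicate 3, and 289 and 315 without 4-OHT ATII CM replicates 2 and 3. The 2 genes that did not pass, *CDC25B* and *PRC1*, also had log2 fold changes below 0. In 37 of the 38 genes every 4-OHT ATII CM library lay below every control ATII CM library, which was so for 10.4% of all genes tested, while no mitotic gene lay wholly above (11.7% of all genes). The median log2 fold change was -0.51, a median fall of 29.6% in RNA, with a range from -0.87 to -0.13. The median of all genes tested was -0.0020. A fall of at least 1.5-fold with an adjusted p below 0.05 was seen in 10 of the 38 genes, against 0.336% of all genes. None of the 38 was called higher in any of the 16 alternative fits, and all 38 had log2 fold changes below 0 in each fit that tested them. Of the 36, 30 kept their call in every fit, and the fewest calls, 30, were made without 4-OHT ATII CM replicate 2. In bulk RNA, fewer cycling cells and less mitotic RNA in each cycling cell cannot be told apart.

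**Figure D2:**
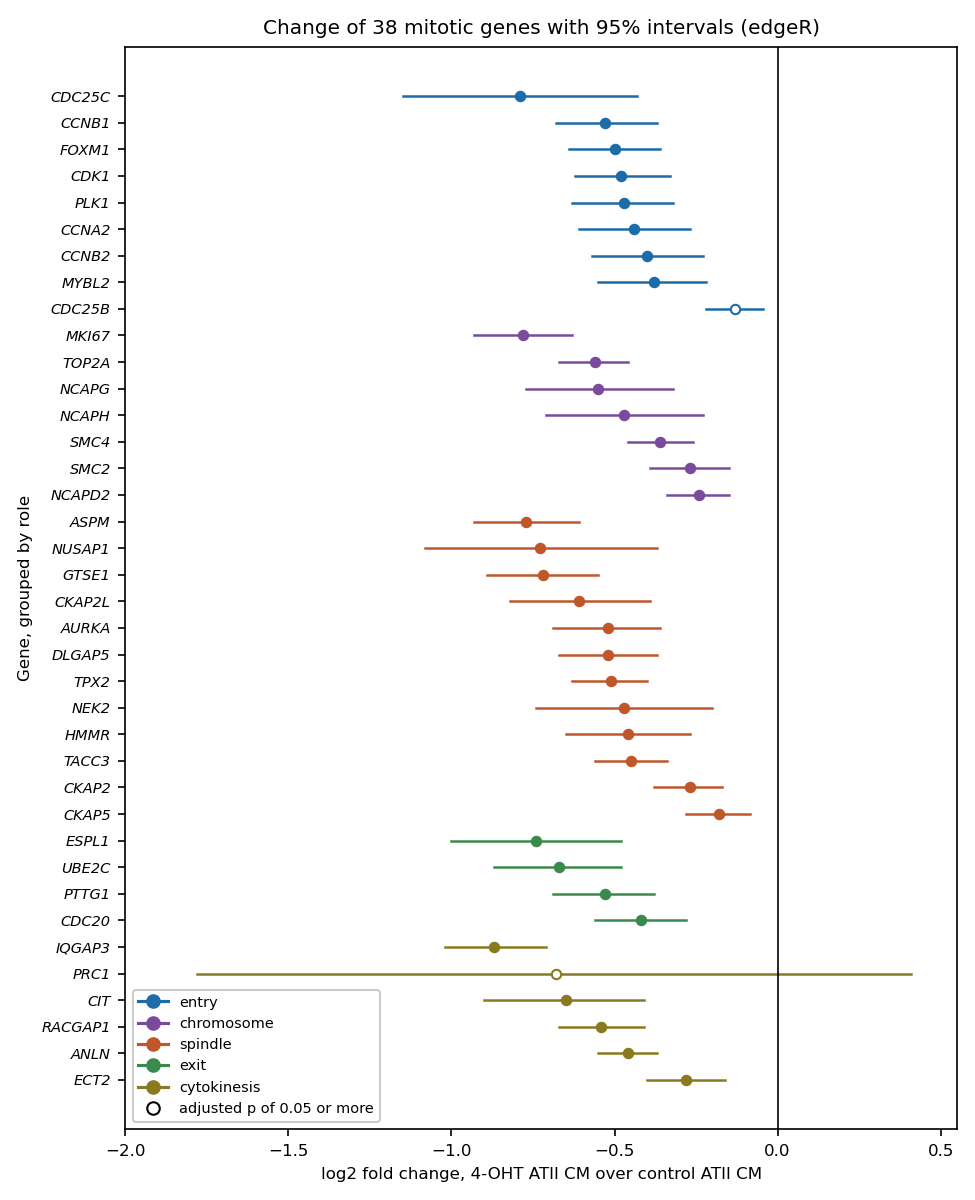
Log2 fold change of each of 38 mitotic genes (4-OHT ATII CM over control ATII CM, 3 libraries each) with its 95% interval from edgeR, grouped and colored by role. Filled points passed an adjusted p of 0.05. Every point lies left of 0, and the interval of *PRC1* alone crosses it.

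Library by library, the median of the 38 genes relative to the control mean was -0.020, 0.042 and -0.027 on the log2 scale in replicates 1 to 3 of control ATII CM. It was -0.44, -0.55 and -0.52 in replicates 1 to 3 of 4-OHT ATII CM. All 38 genes were below the control mean in each 4-OHT ATII CM library. Control ATII CM replicate 2 held the highest value of 24 of the 38 genes, and it is also the library with the fewest counts and the one set apart on the second principal component of all genes. Without it 34 of the 38 genes were called lower, with a median log2 fold change of -0.45. The part of that library in the size of the changes was not tested beyond this. Library totals ran from 17691849 to 26389449 counts.

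**Figure D3:**
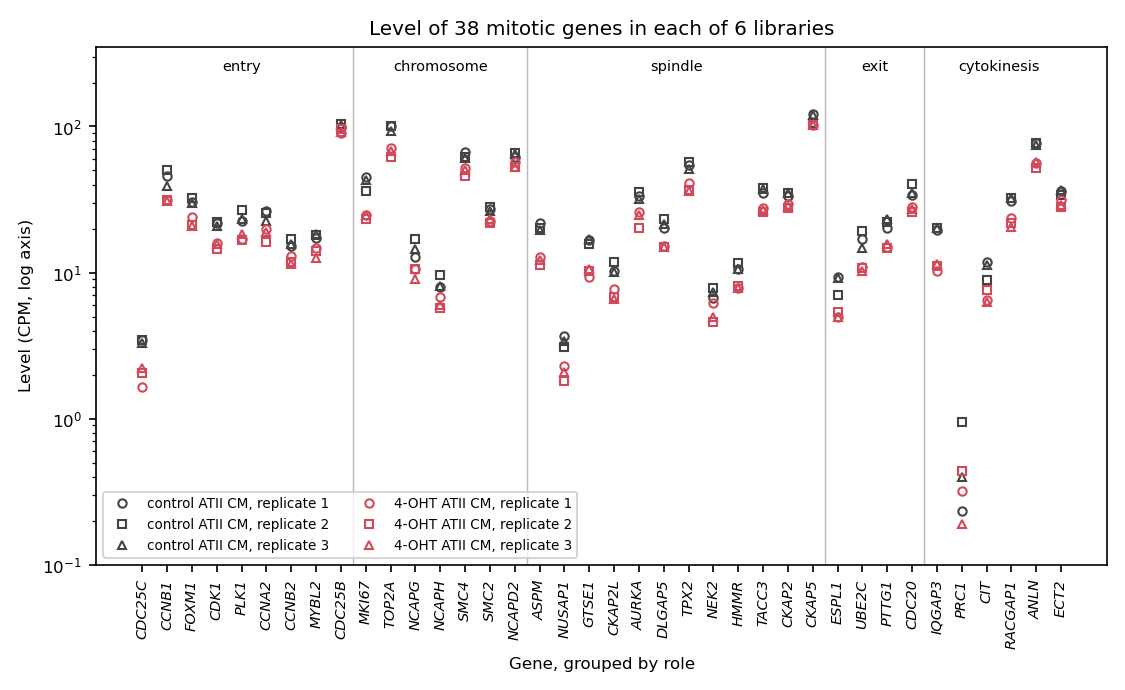
Level (CPM, log axis) of each of 38 mitotic genes in 3 control ATII CM libraries (gray) and 3 4-OHT ATII CM libraries (red), grouped by role and, within a role, by size of change. Red points lie below gray ones in every gene but *PRC1*, whose groups overlap.

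Of 9 regulators of mitotic entry 8 were called lower, and all 9 had log2 fold changes below 0 (median -0.47). *FOXM1* (ENSG00000111206, chromosome 12 of GRCh38, 2857681 to 2877155) encodes the forkhead factor that drives late cell cycle transcription. In CPM, the share of a library's counts scaled to a common total, it was at 30.3, 32.6 and 30.1 in control ATII CM. The 4-OHT ATII CM libraries held 23.9, 21.2 and 20.7 CPM, all below every control. On the log2 scale it fell by 0.50 with a standard error of 0.0646 (edgeR, adjusted p = 0.000232). *CCNB1* (ENSG00000134057, chromosome 5, 69167010 to 69178245), encoding cyclin B1, was at 45.9, 50.4 and 39.0 CPM in control ATII CM and at 31.2, 31.3 and 31.0 CPM in 4-OHT ATII CM. The 3 treated libraries were nearly equal and the controls more spread, and *CCNB1* fell by 0.53 on the log2 scale with a standard error of 0.0715 (adjusted p = 0.000336). *CDK1*, the kinase that cyclin B1 activates, and *PLK1* fell by 0.48 and 0.47 on the log2 scale. *CCNA2* and *CCNB2*, encoding cyclins A2 and B2, fell by 0.44 and 0.40. *MYBL2*, encoding the B-MYB subunit of the activating MuvB complex, fell by 0.38.

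The CDC25 phosphatases, which remove the inhibitory phosphates from CDK1, differed in level and in size of change. *CDC25C* was scarce, with 74, 62 and 75 counts in the controls against 36, 51 and 58 with 4-OHT ATII CM, and its log2 fold change of -0.79 had a 95% interval from -1.15 to -0.43. Its exons share bases with *FAM53C* on the opposite strand, a gene with 8657 counts in all libraries together against 356. *CDC25B* (ENSG00000101224, chromosome 20, 3786772 to 3806121) was at 98.6, 104 and 103 CPM in control ATII CM and at 90.6, 96.7 and 91.7 CPM in 4-OHT ATII CM. The groups did not overlap, but the log2 fold change of -0.13 (95% interval -0.22 to -0.046) did not pass (adjusted p = 0.0718). It passed in 2 alternatives, after libraries were thinned to one depth and after a correction for GC content and length. The intervals of *CDC25B* and *CDC25C* do not overlap. That of *CDC25A*, from the list of other mitotic genes below, overlaps both (log2 fold change -0.37, 95% interval -0.60 to -0.13, not called). Per kilobase of exon, *CDC25C* stood at 0.0454, 0.0433 and 0.0415 of *CDC25B* in the controls and at 0.0235, 0.0273 and 0.0311 with 4-OHT ATII CM. The exact two-sided permutation p of that ratio was 0.1, the smallest that 3 libraries against 3 allow, and 0.333 when adjusted over the 10 gene ratios computed.

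All 7 genes of chromosome structure fell (median log2 fold change -0.47). *MKI67* (ENSG00000148773, chromosome 10, 128096659 to 128126385) encodes Ki-67, which coats mitotic chromosomes and is the usual marker of cycling cells. It was at 45.3, 36.4 and 42.8 CPM in control ATII CM and at 24.8, 23.2 and 24.6 CPM in 4-OHT ATII CM. *MKI67* fell by 0.78 on the log2 scale, with a standard error of 0.0699 (adjusted p = 1.01e-05). Here control replicate 2 was the lowest of the controls, unlike in most of the other genes. *TOP2A* (ENSG00000131747, chromosome 17, 40388516 to 40417950) encodes topoisomerase IIα, which untangles sister DNA. It was at 101, 100 and 93.7 CPM against 70.8, 61.8 and 67.5 CPM. The difference was several times the spread within either group.

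The 5 subunits of the condensin I complex all fell. *SMC2* and *SMC4*, the ATPase arms that condensin I shares with condensin II, fell by 0.27 and 0.36 on the log2 scale, and *NCAPD2*, a large regulatory subunit, by 0.24. The other regulatory subunits *NCAPG* and *NCAPH* had log2 fold changes of -0.55 and -0.47. *NCAPH* (ENSG00000121152, chromosome 2, 96335787 to 96373845), the kleisin that bridges the arms, had the largest p of these genes. It was at 7.96, 9.57 and 8.12 CPM in control ATII CM and at 6.81, 5.69 and 6.01 CPM in 4-OHT ATII CM (adjusted p = 0.0205). It was not called without control ATII CM replicate 2, without 4-OHT ATII CM replicate 2 or 3, or at reduced depth, and its adjusted p over these fits was up to 0.1. *SMC2* was not called without 4-OHT ATII CM replicate 2 (adjusted p = 0.0625). Per kilobase, *NCAPG* was 0.614, 0.802 and 0.714 of *SMC2* in the controls and 0.611, 0.627 and 0.515 with 4-OHT ATII CM, so these groups overlapped. Of the exon bases of *NCAPG*, 33.1% are shared with *LCORL* on the opposite strand.

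All 12 spindle genes fell, with a median log2 fold change of -0.52. *ASPM* (ENSG00000066279, chromosome 1, 197084128 to 197146694) encodes a protein of the spindle poles. It was at 21.7, 20.3 and 19.6 CPM in control ATII CM and at 12.8, 11.2 and 12.1 CPM in 4-OHT ATII CM. *ASPM* fell by 0.77 on the log2 scale, with a standard error of 0.0756 (adjusted p = 2.24e-05). *TPX2* (ENSG00000088325, chromosome 20, 31739271 to 31801805), which activates Aurora A on the spindle, was at 54.3, 57.3 and 51.4 CPM against 41.2, 36.9 and 36.3 CPM. It fell by 0.51 on the log2 scale, and *AURKA* itself by 0.52. The ratio of *TPX2* to *AURKA* per kilobase overlapped between the groups, at 1.30 to 1.32 in control ATII CM and 1.2 to 1.48 in 4-OHT ATII CM. *GTSE1*, a binder of growing microtubule ends, and *CKAP2L*, a spindle protein, fell by 0.72 and 0.61. *DLGAP5*, which bundles microtubules at the kinetochores, and *HMMR*, a spindle pole partner of TPX2, fell by 0.52 and 0.46.

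Of the lesser spindle changes, *TACC3* and *CKAP5* form one pair, since TACC3 brings the microtubule polymerase chTOG, the product of *CKAP5*, to the spindle. *TACC3* fell by 0.45 and *CKAP5* by 0.18 on the log2 scale, and their 95% intervals, -0.56 to -0.34 and -0.28 to -0.084, do not overlap. *CKAP5* was at 121, 106 and 120 CPM in control ATII CM and at 103, 102 and 102 CPM in 4-OHT ATII CM. It was not called without any of 5 libraries, the exception being control ATII CM replicate 2, nor at reduced depth (adjusted p up to 0.130). *CKAP2*, which stabilizes spindle microtubules, fell by 0.27. *NEK2* (ENSG00000117650, chromosome 1, 211658657 to 211675630), the kinase that splits centrosomes, had the largest p of the spindle genes. It was at 6.70, 7.78 and 7.32 CPM in control ATII CM and at 6.21, 4.61 and 4.95 CPM in 4-OHT ATII CM. The log2 fold change of -0.47 (adjusted p = 0.0396) was not called with a replicate block or without any single library other than 4-OHT ATII CM replicate 1 (adjusted p up to 0.166).

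The 4 genes of mitotic exit fell, with a median log2 fold change of -0.60. *PTTG1* (ENSG00000164611, chromosome 5, 160421822 to 160428744) encodes securin, which holds the protease separase in check until anaphase. It was at 20.1, 22.3 and 23.4 CPM in control ATII CM and at 14.9, 14.8 and 15.6 CPM in 4-OHT ATII CM (adjusted p = 0.000351). *UBE2C* (ENSG00000175063, chromosome 20, 45812576 to 45816957), the ubiquitin-conjugating enzyme of the APC/C, was at 17.0, 19.3 and 14.8 CPM against 10.9, 10.7 and 10.3 CPM. The treated libraries again varied less than the controls, and *UBE2C* fell by 0.67 on the log2 scale, with a standard error of 0.0928. *ESPL1* (ENSG00000135476, chromosome 12, 53268299 to 53293643), encoding separase, was at 9.28, 7.0 and 9.13 CPM in control ATII CM and at 4.93, 5.37 and 4.95 CPM in 4-OHT ATII CM. It had the largest p of the 4 genes (adjusted p = 0.00160) and a log2 fold change of -0.74. *CDC20*, the APC/C activator of metaphase, fell by 0.42.

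Of 6 cytokinesis genes 5 were called lower, and all 6 had log2 fold changes below 0. *IQGAP3* (ENSG00000183856, chromosome 1, 156525405 to 156572604) had the largest change of all 38 genes. It was at 19.5, 20.2 and 20.2 CPM in control ATII CM and at 10.3, 11.1 and 11.5 CPM in 4-OHT ATII CM, 45.1% lower (log2 fold change -0.87, 95% interval -1.02 to -0.71). *ANLN* (ENSG00000011426, chromosome 7, 36389806 to 36453791), encoding anillin of the contractile ring, was at 76.5, 77.5 and 74.4 CPM against 55.9, 52.1 and 57.5 CPM. Both genes were far apart between the groups relative to the spread within them. *CIT*, encoding the midbody kinase citron, and *RACGAP1*, a subunit of centralspindlin, fell by 0.65 and 0.54. *ECT2*, whose product centralspindlin recruits to the midzone, fell by 0.28 and was not called without 4-OHT ATII CM replicate 2 (adjusted p = 0.0572).

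*PRC1*, the bundler of midzone microtubules, could not be compared. Its counts were 5, 17 and 9 in the controls against 7, 11 and 5 with 4-OHT ATII CM, and the 95% interval of its log2 fold change ran from -1.78 to 0.41. Of its exon bases, 57.6% belong also to ENSG00000284946, a gene on the same strand that spans *PRC1*, with 26, 31 and 32 counts against 17, 22 and 12. *NUSAP1*, encoding a microtubule-bundling protein of the spindle, shares 62.2% of its exon bases with ENSG00000285920, which has no count in any library. It had 79, 55 and 77 counts against 50, 45 and 55. It fell by 0.73 on the log2 scale but was not called without replicate 1 or 3 of control ATII CM or replicate 2 or 3 of 4-OHT ATII CM (adjusted p up to 0.0864). How reads that fit several genes were counted is not given in the sources used here, and the low counts of these 2 genes are not comparable in level with the rest.

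Levels of the other 36 genes, set on one scale as CPM per kilobase of exon, spanned from 0.808 for *CIT* to 23.6 for *CDC25B* in control ATII CM. *CDC20*, *CCNB1*, *TOP2A* and *TPX2* followed *CDC25B* at 17.9, 17.6, 15.3 and 15.1 CPM per kilobase. *ESPL1* and *CDC25C* were near *CIT* at 0.953 and 1.02 CPM per kilobase. Genes with a higher level tended to change less (Spearman's rho of 0.456 across the 36 genes between control level and log2 fold change). The points share libraries, the control level enters both quantities, and scarce genes have wider intervals. Among abundant genes the sizes still differed, since the 95% interval of *TOP2A* (-0.67 to -0.46) lies wholly below those of *CDC25B* and *CKAP5*.

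**Figure D4:**
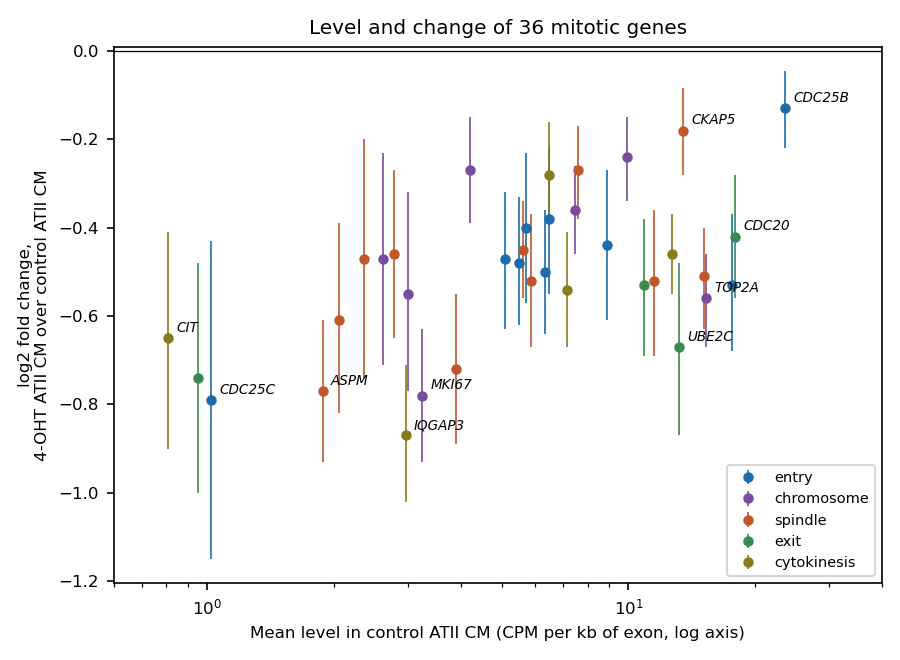
Mean level in control ATII CM (CPM per kilobase of exon, log axis) against log2 fold change (4-OHT ATII CM over control ATII CM) for 36 mitotic genes colored by role, with 95% intervals as vertical lines. *CDC25B* and *CKAP5*, at 23.6 and 13.5 CPM per kilobase, lie nearest to 0, and *IQGAP3* lies lowest.

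The 5 roles did not separate by size of change. Their medians ran from -0.47 for entry and chromosome genes through -0.52 for spindle genes to -0.60 for exit and cytokinesis genes. The ranges within roles were wider than the gaps between them, from -0.79 to -0.13 in entry genes and from -0.87 to -0.28 in cytokinesis genes. No test was made between roles, whose genes are not replicates. Ratios of partner genes overlapped between the groups in 8 of 10 pairs. Per kilobase, *CCNB1* was 2.9 to 3.5 times *CDK1* in control ATII CM and 3.01 to 3.30 times in 4-OHT ATII CM. *CCNA2* was 1.55 to 1.68 times *CDK1* against 1.57 to 1.74 times. The other 2 ratios had groups that did not overlap, namely *CDC25C* to *CDC25B* and *TACC3* to *CKAP5* (0.379, 0.469 and 0.405 against 0.350, 0.336 and 0.348, exact permutation p = 0.1, adjusted 0.333).

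The changes of genes with CHR letters in a promoter window and of those without overlapped in range. The 28 with a match had a median log2 fold change of -0.52 (range -0.87 to -0.13) and the 5 without one had -0.44 (range -0.47 to -0.27). The latter were *CCNA2*, *MYBL2*, *NEK2*, *CKAP2* and *TACC3*, and all 5 fell, but the deposited 5′ ends of *CKAP2* and *TACC3* were not in a window. The 26 genes whose deposited 5′ end was in a window had a median of -0.53 with a match in any window (23 genes). Without a match it was -0.44 (3 genes). The 23 include *CDC25B* (-0.13) and *CDC25C* (-0.79), whose windows that held the deposited 5′ end had no match. The CHR match of *CDC25B*, the gene that changed least, lies in 1 of its 4 windows, at position 33 counted from that start.

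A list of 86 other genes of mitosis, also chosen with earlier results known and ordered by the same roles, was set beside the 38. In 4-OHT ATII CM 13 of them were lower and 1 was higher, with a median log2 fold change of -0.067. Of the 13, 7 were among the 16 genes of cytokinesis. They included all 4 subunits of the chromosomal passenger complex, *AURKB* (-0.69), *BIRC5* (-0.56), *CDCA8* (-0.55) and *INCENP* (-0.26), which corrects chromosome attachment and then guides division. *KIF20A* and *KIF23*, mitotic kinesins of the midzone, and *CEP55*, which recruits the abscission machinery, had log2 fold changes of -0.57, -0.46 and -0.60. Lower genes in the other roles included *PKMYT1* (an inhibitory kinase of CDK1, -0.47), *NCAPG2* (condensin II, -0.29) and *CDCA5* (sororin, which protects cohesin, -0.45). The rest were *SPAG5* (the spindle protein astrin, -0.50), *PCNT* (pericentrin of the centrosome, -0.25) and *UBE2S* (an E2 enzyme of the APC/C, -0.27). The higher gene was *RBL2*, which encodes the pocket protein p130 of the repressing MuvB complex. It rose from 52.3 ± 1.65 CPM (SD, n = 3) to 58.0 ± 1.13 CPM (SD, n = 3), a log2 fold change of 0.15 (adjusted p = 0.0462 from edgeR), and it was not called by DESeq2, by limma-voom or with any 1 library left out.

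Complexes within this list were grouped after the values were seen. At 2.76% lower and 2.95% higher over all genes, less than 1 call is the background for groups of this size, so a count of 0 says little about them. None of 14 APC/C subunits was called (edgeR, 0 at an unadjusted p below 0.05, and 0 by DESeq2 and by limma-voom), and their log2 fold changes ran from -0.11 to 0.06. Of the proteins that work with the APC/C, the activator *CDC20* and the E2 enzymes *UBE2C* and *UBE2S* were lower, as given above. The other activator, *FZR1*, had a log2 fold change of -0.0093 (adjusted p = 0.943) and the inhibitor *FBXO5* one of -0.25 (adjusted p = 0.0966), so neither was called. None of 14 genes of augmin and the γ-tubulin ring complex was called either, with 3 at an unadjusted p below 0.05 and 0 by either other tool, and their log2 fold changes ran from -0.19 to 0.36. Among 8 genes of cohesin and its partners the count was also 0 (edgeR, 1 at an unadjusted p below 0.05, and 0 by DESeq2 and limma-voom), from -0.13 to 0.06. The 4 septins, filaments of the division site, also gave 0 calls by edgeR, but all 4 had an unadjusted p below 0.05, DESeq2 called 1 higher, and limma-voom called 1 lower and 1 higher. Their log2 fold changes ran from -0.09 to 0.12. Of 8 genes of the MuvB core and pocket proteins only *RBL2* was called, and none by DESeq2 or limma-voom. The 8 had log2 fold changes from -0.44 to 0.15 (median -0.062).

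Lists of neighboring cell cycle steps were set beside the 38 genes. Of 25 centromere and kinetochore genes tested, 20 were called lower, and all 25 had log2 fold changes below 0 (median -0.57). *CENPF* fell by 0.81, *BUB1* by 0.60 and *MAD2L1*, of the spindle checkpoint, by 0.48. Of 34 DNA replication genes 19 were called lower, and 33 had log2 fold changes below 0 (median -0.33). Over all 19072 genes tested, 2.76% were called lower and 9630 had log2 fold changes below 0. *RRM2* and *TK1*, which supply nucleotides, fell by 0.54 and 0.44, and *MCM7*, a subunit of the replicative helicase, by 0.34. The number of replication genes called depended on 1 library and was 9 without 4-OHT ATII CM replicate 2. No difference between lists was tested. The CHR letters were in windows of 13 of 21 kinetochore genes (61.9%), 32 of 80 other mitotic genes and 4 of 30 replication genes (13.3%). Over all RefSeq genes with a window the share was 27.9%. Replication genes thus lay below this share, although 33 of 34 had log2 fold changes below 0. A CCAAT box was found for 13 of 21 kinetochore, 44 of 80 other mitotic and 18 of 30 replication genes, against 39.7% of all. The part of either match in the changes was not tested.

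**Figure D5:**
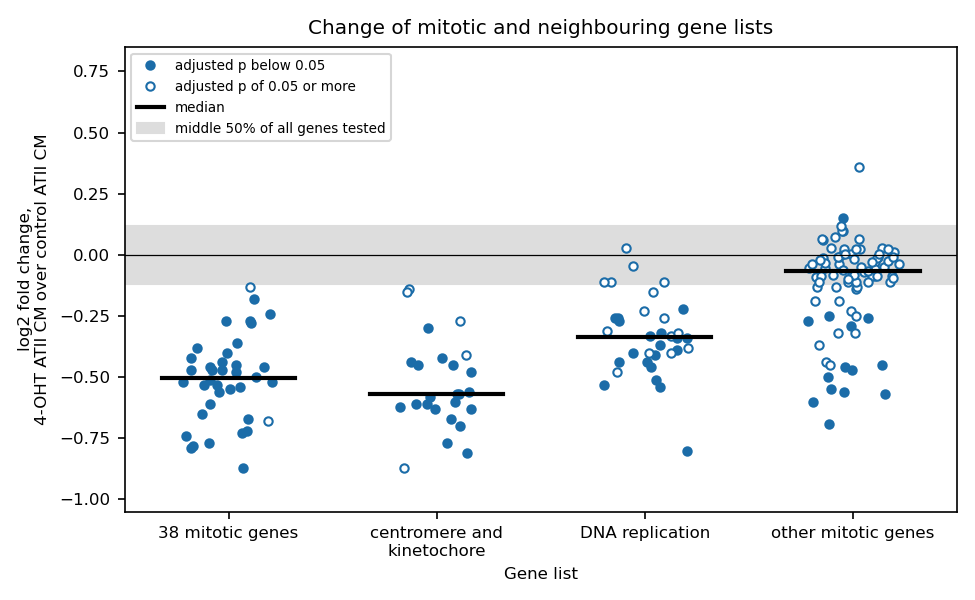
Log2 fold change (4-OHT ATII CM over control ATII CM) of single genes in 4 lists, filled where the adjusted p was below 0.05, with list medians as black bars and the middle 50% of all 19072 genes tested as a gray band (-0.12 to 0.12). The medians are -0.51, -0.57, -0.33 and -0.067 from left to right.

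The cell type named in the labels was checked with markers. All 11 fibroblast markers had counts in every library and together made up 41500 to 44500 CPM in control ATII CM and 43200 to 44400 CPM in 4-OHT ATII CM. Single markers moved, since *DCN*, *LUM*, *PDGFRA* and *COL3A1* were higher (log2 fold changes of 0.33, 0.29, 0.22 and 0.18), *VIM* was lower (-0.10) and 6 were not called. Their part in the lower mitotic RNA was not tested. Of 14 epithelial markers, 6 were at 0 in all libraries (*ESRP1*, *GRHL2*, *KRT5*, *KRT14*, *SFTPA1* and *NKX2-1*), and the list summed to 8.91 to 10.9 CPM in control ATII CM and 7.64 to 9.04 CPM in 4-OHT ATII CM, most of it *KRT19*. Of the endothelial markers, *PECAM1* and *CDH5* were at 0 and *VWF* had 7, 9 and 9 counts in the controls against 5, 8 and 12 with 4-OHT ATII CM. Of the leukocyte markers, *CD68* had at most 2 counts in a library, and *PTPRC* had at most 1 count in a library. *CD14* had 12, 16 and 19 counts in the controls against 23, 38 and 49 with 4-OHT ATII CM, and its part in the results was not tested.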

How the data were processed

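RNA-Seq libraries of MRC5 cells were sequenced as paired-end reads. Raw counts per gene, not normalized, were deposited. According to the submitters' processing notes, the authors used Trim Galore for trimming, HISAT2 2.1.0 for mapping (GRCh38) and featureCounts 1.6.5 for counting. The deposited table also gives the exon length of each gene. Annotation release, strand setting and treatment of reads that fit several genes are not given in the sources used here. Counts of 45 identifiers listed on 2 lines were added.

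Groups were taken from the sample titles. Genes with at least 10 counts over the 6 libraries (19072) entered edgeR 4.0.16 in R 4.3.3, with TMM scaling and the quasi-likelihood test, group as the only term, Benjamini-Hochberg adjustment over all genes, threshold 0.05. The F statistic of each gene gave its standard error and 95% interval. CPM use TMM-scaled totals. Alternatives were DESeq2 1.42.0, limma-voom (limma 3.58.1), other scalings and filters, a replicate block, removal of each library in turn, thinning, and a correction for GC content and length. Library totals ran from 17691849 to 26389449 counts, and counting error weighs most on the genes with few counts.

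The genes, their roles and the other lists were chosen with earlier results of these data known, so lists are described by counts and medians beside those of all genes. Values in every library are given for *MKI67*, *TOP2A* and, in each role, the 2 genes with the smallest and the 1 with the largest p, and further genes were added after their values were seen. Symbols came from GENCODE release 44, whose exons include 94.4% of the deposited exons of the 38 genes. Of the 38 genes, 14 share exon bases with another gene. Near-identical transcripts of other genes (at least 50% covered, 95% identity, minimap2 2.31) were found for *AURKA* (*AURKAP1*, 2 counts) and *NUSAP1*, and alternate-contig copies for none. Protein sequences were not used here.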

Additional observations from a re-analysis of the deposited data

How the results depend on the processing

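Over 16 alternative fits the number of the 38 mitotic genes that were lower ran from 35 to 37 under other tests, scalings, filters, depths and corrections, and from 30 to 35 with 1 library left out. None of the 38 was called higher in any of them. The calls lost in at least 1 alternative were those of *NCAPH*, *SMC2*, *NEK2*, *NUSAP1*, *CKAP5* and *ECT2*. The median log2 fold change ran from -0.53 to -0.45 with 1 library left out, and the latter value came without control ATII CM replicate 2. Lowering the fold requirement from 1.5-fold to 1.2-fold took the number of genes past both thresholds from 10 to 34.

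The numbers in the titles did not pair the libraries, since deviations from the group means correlated at -0.0145, -0.104 and -0.0931 for replicates 1, 2 and 3 over 9691 genes. With the replicate block 35 of the 38 genes were lower, and *NEK2* alone lost its call. Of the 86 other mitotic genes, 1 was higher, and this number was 0 with the replicate block, with or without the GC and length correction, 0 at reduced depth, 2 with no filter beyond 1 count, and 0 to 2 with 1 library left out. The number of replication genes that were lower ran from 9 to 18 with 1 library left out, and that of kinetochore genes from 14 to 18. The cause of these differences was not tested. With libraries thinned to the smallest total, *NCAPH* and *CKAP5* lost their calls.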
